A study of Mus musculus with 12 samples.

Results

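The 36 genes described here encode chaperones of the endoplasmic reticulum (ER), parts of ER-associated degradation (ERAD), regulators of the unfolded protein response (UPR), cytosolic heat shock proteins and a pair of mitochondrial chaperones. They were chosen by name and for their function, with earlier results of these data known, and were matched to the gene names on the array. Of the 36, 35 had a probe, among 34797 gene names on the array, and all 35 were among the 21206 genes tested. All 35 were well above background on all 12 arrays. Hspa1b, a near-identical copy of Hspa1a, has no probe of that name, and the Hspa1a values are uncertain because its probe may also bind Hspa1b. The classes hold 14 ER chaperones, 4 ERAD genes, 7 UPR regulators, 9 heat shock genes of which 8 had a probe, and 2 mitochondrial chaperones.

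Liver RNA of male ICR mice, 5 weeks old at purchase, was measured on 12 1-colour arrays, 1 for each of 6 treatments at day 2 and at day 7. The vehicle group drank water, the DEN group drank diethylnitrosamine (a liver carcinogen that alkylates DNA) at 80 mg/L, the ATRA group drank all-trans retinoic acid (the active form of vitamin A) at 30 mg/L, and the ATRA+DEN group drank both. The control siRNA and G0s2 siRNA groups were injected with 1.6 nmol of small interfering RNA, on the day before DEN according to the protocol; whether each siRNA mouse drank DEN is not stated. No group has a replicate, and whether a sample came from 1 animal or a pool is not stated. Every p-value thus rests only on the spread between arrays and not between replicates. In the main fits that spread is taken between pairs of arrays, or within slides where the DEN difference is compared with and without ATRA. Levels are log2 intensities relative to the 75th percentile of the array, so a level of 0 equals that percentile, and 1 unit is a factor of 2. Levels of different genes come from different probes and are not compared with each other.

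The ER folds secreted and membrane proteins, a large task for hepatocytes, which secrete most plasma proteins. When unfolded proteins accumulate there, the sensors IRE1 (Ern1), PERK (Eif2ak3) and ATF6 act through the transcription factors XBP1, ATF4 and cleaved ATF6, and genes of ER chaperones and ERAD are switched on. Unfolded proteins of the cytosol act through a separate factor, HSF1, which switches on the cytosolic heat shock genes.

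Many ER chaperone promoters carry the ER stress response element (ERSE), to which ATF6 and XBP1 bind with NF-Y, and these elements are shown because 7 of the 14 ER chaperones carry the exact form. RefSeq promoter windows (build GRCm38.p6, 250 bases before to 50 after the start of a gene, 300 bases) were available for 31 of the 36 members. The exact ERSE, CCAAT and CCACG separated by 9 bases of any kind, was searched on both strands and was found in 39 of 32851 windows (0.119%), and in 8 of the 31 members. The form called ERSE-II, ATTGG and CCACG separated by a single base, was found in 12 windows (0.0365%), among them those of Herpud1 and Dnajb11. The sequences run 5′ to 3′ on the strand of the gene, with the match in capitals and 12 bases on either side.
Hspa5: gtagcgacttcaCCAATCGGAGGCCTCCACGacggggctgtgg
Creld2: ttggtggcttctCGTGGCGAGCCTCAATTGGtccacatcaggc
Hsp90b1: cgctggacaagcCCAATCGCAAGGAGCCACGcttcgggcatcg
Dnajc3: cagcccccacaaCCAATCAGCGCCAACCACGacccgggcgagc
Syvn1: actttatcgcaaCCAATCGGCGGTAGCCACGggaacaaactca
Calr: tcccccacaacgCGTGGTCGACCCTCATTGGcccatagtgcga
Canx: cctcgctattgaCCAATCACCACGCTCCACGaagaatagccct
Pdia6: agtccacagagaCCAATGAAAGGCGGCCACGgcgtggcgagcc
Herpud1 (ERSE-II): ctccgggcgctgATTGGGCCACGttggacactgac
The stretch of Hspa5 lies at chr2:34772013-34772055, + strand, motif starting 65 bases before the start, on the gene strand. That of Creld2 lies at chr15:88819508-88819550, + strand, motif starting 126 bases before the start, on the opposite strand. That of Hsp90b1 is at chr10:86705626-86705668, - strand, motif starting 212 bases before the start, on the gene strand, and this window holds another match nearer to the start on the opposite strand. That of Dnajc3 is at chr14:118937815-118937857, + strand, motif starting 105 bases before the start, on the gene strand. The Syvn1 stretch is at chr19:6046520-6046562, + strand, motif starting 44 bases before the start, on the gene strand. The Calr stretch is at chr8:84847063-84847105, - strand, motif starting 162 bases before the start, on the opposite strand. The Canx stretch is at chr11:50325788-50325830, - strand, motif starting 145 bases before the start, on the gene strand. The Pdia6 stretch is at chr12:17266479-17266521, + strand, motif starting 98 bases before the start, on the gene strand. The Herpud1 stretch is at chr8:94386365-94386399, + strand, motif starting 52 bases before the start, on the gene strand. No heat shock gene window held the ERSE. The exact heat shock element, GAA, TTC and GAA with any 2 bases between each, occurs in 0.603% of windows and was found for Hsph1, Hspd1 and Hspe1, the last pair sharing a promoter region in opposite orientation, where matches overlap each other.

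The arrays lay on 4 slides scanned on 3 days, with between 41.0% and 50.7% of probes well above background. Each DEN pair and each siRNA pair lay on 1 slide, the day-7 ATRA pairs spanned 2 slides, and no slide held both days. All 8 hepatocyte markers were above background on all 12 arrays, with a summed level of 12.1 to 13.1. G0s2, the siRNA target, was at 3.84 in control siRNA and 1.99 in G0s2 siRNA at day 2, and at 3.45 and 2.26 at day 7. The title and the treatment characteristic name different treatments for 3 arrays of day 7, and titles are used here. The p53 target Cdkn1a was at 1.96 in vehicle, 6.83 in the array titled DEN, 6.62 in the array titled ATRA+DEN and 2.84 in the array titled ATRA at day 7. The retinoid-degrading enzyme Cyp26a1 was at 2.38, 1.35, 4.34 and 7.10 in those arrays. By the characteristic, the arrays titled DEN, ATRA+DEN and ATRA would be ATRA, DEN and ATRA+DEN. The ATRA array would then have Cyp26a1 at 1.35, below vehicle, and Cdkn1a at 6.83. The ATRA+DEN array would have Cdkn1a at 2.84. In the siRNA arrays Cdkn1a was at 4.00 against 3.37 (day 2) and 5.56 against 6.82 (day 7), control siRNA first, against 1.12 in vehicle and 4.02 in DEN at day 2. The vehicle array of day 2 stood apart in exocrine pancreas transcripts, with 12 of 12 markers above background there (summed level 5.94) and 3 to 5 of 12 on each of the other arrays (2.73 to 4.75).

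Across the 12 arrays the genes were most often highest in the vehicle and ATRA arrays of day 7 and most often lowest in the ATRA+DEN array of day 2 and the control siRNA array of day 7. Of the 35, 16 had their highest level in vehicle at day 7 and 7 in ATRA at day 7, while 19 had their lowest level in ATRA+DEN at day 2 and 7 in control siRNA at day 7. All 14 ER chaperones were above their own 12-array mean in both of the highest arrays, and none was above it in ATRA+DEN at day 2. The matching shares over all genes were not counted, so these counts describe the members only. The heat shock class followed another order in part. Its median, taken over levels minus each gene's mean, was 0.50 and 0.45 in the control and G0s2 siRNA arrays of day 2, where the ER chaperone median was 0.02 and 0.06.

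**Figure D1:**
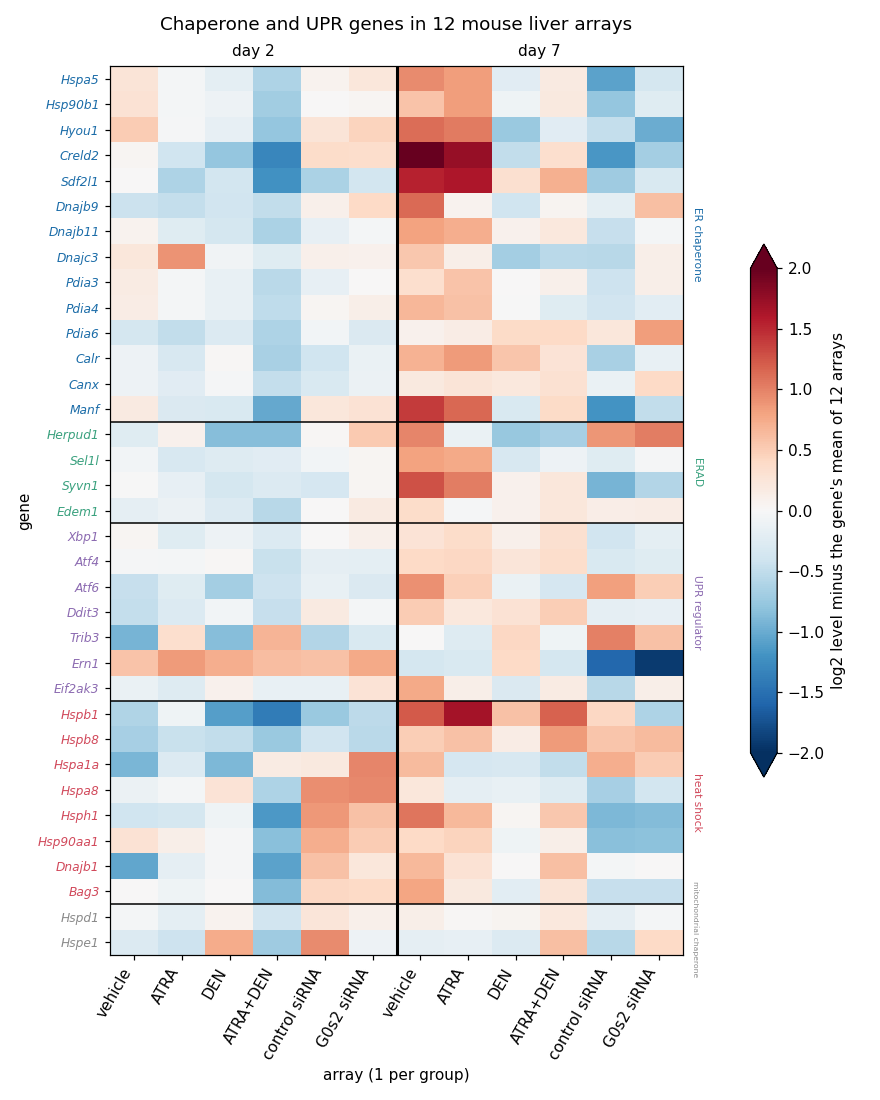
Level of each of 35 genes (rows, coloured by class) on each of 12 arrays (columns, day 2 at left and day 7 at right), as the log2 level minus the mean of that gene over the 12 arrays. The vehicle and ATRA columns of day 7 are above the mean for all 14 ER chaperones, and the ATRA+DEN column of day 2 is below it for all 14.

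The DEN pairs ask how the carcinogen affects these genes, with 4 pairs of arrays that differ in DEN. ER chaperones were lower with DEN: 13 of 14 had a negative mean difference, 10 of 14 were lower in all 4 pairs, and the class median was -0.57. All 4 ERAD genes were lower on average, with a median of -0.57, whereas the UPR regulators had a median of -0.10 and the 8 heat shock genes one of -0.28. Over all 21206 genes the median was -0.02 and 54.2% were lower. No gene of the 21206 passed limma's test with Benjamini-Hochberg adjustment (0%), and the smallest adjusted p among the members was 0.24. At an unadjusted p under 0.05, 15 of 35 members were lower and 0 higher, against 6.8% of all genes lower and 5.48% higher. In all 4 pairs 16 of 35 members were lower and 1 was higher, against 12.5% and 9.17% of all genes. With the day-7 groups taken from the characteristic, the ER chaperone median was -0.17, and 0 of 14 were lower in every pair or at an unadjusted p under 0.05. Under that labelling the day-7 array called ATRA has Cyp26a1 at 1.35, against 2.38 in vehicle.

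**Figure D2:**
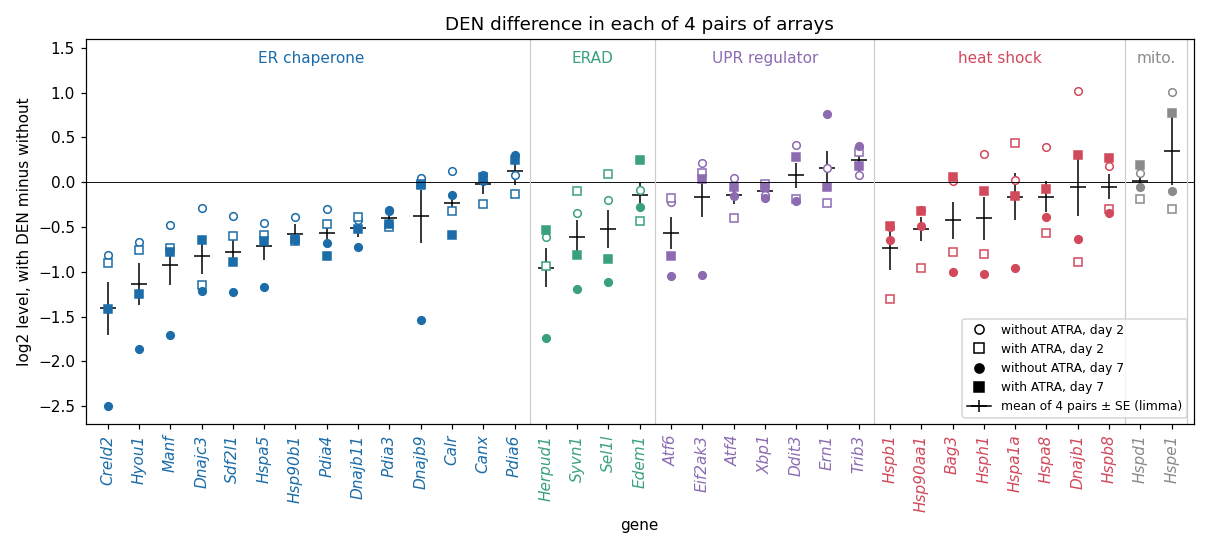
Difference in log2 level, with DEN minus without, for each gene in each of 4 pairs of arrays (open symbols day 2, filled day 7, circles without ATRA, squares with ATRA), with the mean of the 4 pairs and its standard error from limma. All 4 symbols lie below 0 for 10 of 14 ER chaperones, while those of Pdia6 and Canx lie around 0.

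Among the main folding factors of the ER lumen, BiP, GRP94 and Hyou1 were lower in every pair. Hspa5 (probe on chromosome 2, 34631913 to 34631972, build mm9) encodes BiP, the Hsp70 of the ER and the classic target of the UPR. Its level was 7.88 in vehicle against 7.42 in DEN and 7.57 in ATRA against 6.99 in ATRA+DEN at day 2. At day 7 it was 8.55 and 7.39 in vehicle and DEN and 8.44 and 7.79 in ATRA and ATRA+DEN. In the siRNA arrays, control siRNA first here and below, it was 7.68 against 7.84 (day 2) and 6.54 against 7.26 (day 7). The level was lower with DEN in each pair, and the day-7 vehicle and ATRA arrays stood highest of the 12. The mean DEN difference was -0.72 (SE 0.16, 4 pairs, 1.64-fold lower, limma unadjusted p = 0.00392, adjusted p = 0.251). Hsp90b1 encodes GRP94, the Hsp90 of the ER. Its levels in vehicle and ATRA of day 2 and vehicle and ATRA of day 7 were 7.74, 7.41, 8.03 and 8.29, against 7.35, 6.76, 7.38 and 7.66 in DEN and ATRA+DEN of day 2 and DEN and ATRA+DEN of day 7, with 7.46 against 7.49 (day 2) and 6.69 against 7.21 (day 7) in the siRNA arrays. The levels with DEN lay below those without it at each day, and the mean difference was -0.58 (SE 0.12, unadjusted p = 0.00243). Hyou1, a nucleotide exchange factor of BiP, was read by a dim probe at -0.24, -0.77, 0.37 and 0.28 in the same 4 arrays without DEN and -0.91, -1.52, -1.49 and -0.97 with it, and at -0.50 against -0.30 (day 2) and -1.22 against -1.74 (day 7) in the siRNA arrays. The groups with and without DEN did not overlap over the 8 arrays, and the mean difference was -1.13 (SE 0.23, unadjusted p = 0.00284). The share of all genes whose DEN groups did not overlap was not counted. Under normexp background correction the Hyou1 difference was -0.72, so its size depends on how background is handled.

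The largest DEN difference among the members was that of Creld2, an ER protein related to disulfide isomerases (chromosome 15, 88656997 to 88657056, mm9). Its level was 5.80 in vehicle against 4.98 in DEN and 5.37 in ATRA against 4.46 in ATRA+DEN at day 2. At day 7 it was 7.76 and 5.26 in vehicle and DEN and 7.51 and 6.09 in ATRA and ATRA+DEN. The siRNA arrays gave 6.12 against 6.12 (day 2) and 4.59 against 5.09 (day 7). The difference was negative in every pair, -0.81, -0.90, -2.49 and -1.42, and its mean was -1.41 (SE 0.29, 2.65-fold lower, unadjusted p = 0.00297, adjusted p = 0.245). The 10 spots of the Creld2 probe on an array agreed to an SD of 0.02 to 0.05, a measure of spot error alone. Manf, which encodes a protein secreted under ER stress, was at 4.89, 4.43, 6.12 and 5.87 without DEN and 4.41, 3.69, 4.41 and 5.10 with it, in the array order given for Hsp90b1, and at 4.94 against 5.01 (day 2) and 3.52 against 4.22 (day 7) in the siRNA arrays. Manf was lower in each pair, with a mean difference of -0.93 (SE 0.23, unadjusted p = 0.00632). Sdf2l1, a cofactor of the BiP cycle, was at 3.52, 2.89, 5.05 and 5.11 without DEN and 3.13, 2.29, 3.83 and 4.22 with it, and at 2.87 against 3.14 (day 2) and 2.80 against 3.20 (day 7) in the siRNA arrays. Its day-7 levels were above its day-2 levels in all 4 of those treatments, and within each pair it was lower with DEN, with a mean difference of -0.77 (SE 0.15, unadjusted p = 0.0023).

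Among the ER J-domain proteins, which hand substrates to BiP, Dnajb11 and Dnajc3 were lower with DEN in all 4 pairs and Dnajb9 in 3. Dnajb11 (ERdj3) was at 4.95, 4.64, 5.68 and 5.61 without DEN and 4.53, 4.25, 4.96 and 5.09 with it, and at 4.71 against 4.83 (day 2) and 4.42 against 4.83 (day 7) in the siRNA arrays, with a mean difference of -0.51 (SE 0.11, unadjusted p = 0.00276). Its dimmer second probe, above background on 11 arrays, gave a mean difference of 0.41, opposite in sign. Dnajc3 (p58IPK) was at 3.38, 4.06, 3.70 and 3.27 without DEN, 3.09, 2.91, 2.48 and 2.62 with it, and 3.26 against 3.25 (day 2) and 2.60 against 3.28 (day 7) in the siRNA arrays. Its levels with and without DEN did not overlap over the 8 arrays, and the mean difference was -0.83 (SE 0.20, unadjusted p = 0.00632). The share of all genes without such overlap was not counted. Dnajb9 (ERdj4) differed with DEN in 1 pair above all, from 3.40 in vehicle to 1.87 in DEN at day 7. The other Dnajb9 levels were 1.83 and 1.88 in vehicle and DEN and 1.78 and 1.76 in ATRA and ATRA+DEN at day 2, 2.34 and 2.31 in ATRA and ATRA+DEN at day 7, and 2.37 against 2.66 (day 2) and 2.07 against 2.86 (day 7) in the siRNA arrays. The DEN differences of Dnajb9 in the pairs without and with ATRA at day 2 and without and with ATRA at day 7 were 0.05, -0.02, -1.53 and -0.03.

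The 3 disulfide isomerases had no common sign. Pdia3, which works with calnexin and calreticulin, was at 4.74, 4.53, 4.90 and 5.13 without DEN and 4.43, 4.03, 4.58 and 4.67 with it, and at 4.40 against 4.57 (day 2) and 4.15 against 4.69 (day 7) in the siRNA arrays, a mean difference of -0.40 (SE 0.10, unadjusted p = 0.00795). Pdia4 was at 3.13, 2.94, 3.65 and 3.56 without DEN, 2.83, 2.47, 2.97 and 2.75 with it and 3.02 against 3.10 (day 2) and 2.60 against 2.77 (day 7) in the siRNA arrays, a mean difference of -0.57 (SE 0.11, unadjusted p = 0.00258). Pdia6, whose promoter also holds an ERSE, did not share this: it was at 7.32, 7.18, 7.76 and 7.83 without DEN, 7.40, 7.06, 8.06 and 8.08 with it and 7.63 against 7.39 (day 2) and 7.91 against 8.52 (day 7) in the siRNA arrays. Its mean difference was 0.13 (SE 0.16), positive in 3 of 4 pairs, and its second probe gave 0.14. The lectin chaperones Calr and Canx, which hold newly made glycoproteins, had mean differences of -0.23 (SE 0.14) and -0.02 (SE 0.11), neither with an unadjusted p under 0.05. Calr was at 6.16, 5.93, 6.95 and 7.11 without DEN, 6.28, 5.60, 6.80 and 6.53 with it and 5.85 against 6.12 (day 2) and 5.61 against 6.11 (day 7) in the siRNA arrays. Canx was at 5.35, 5.22, 5.65 and 5.70 without DEN, 5.43, 4.98, 5.67 and 5.76 with it and 5.15 against 5.34 (day 2) and 5.31 against 5.84 (day 7) in the siRNA arrays, so its groups overlapped.

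In the ERAD class, which exports misfolded proteins from the ER for degradation, Herpud1, a membrane adaptor, had the largest difference. Its level was 5.12 in vehicle against 4.51 in DEN and 5.46 in ATRA against 4.52 in ATRA+DEN at day 2. At day 7 it was 6.35 and 4.61 in vehicle and DEN and 5.25 and 4.71 in ATRA and ATRA+DEN. It was lower with DEN in each pair, and in the siRNA arrays, at 5.40 against 5.90 (day 2) and 6.25 against 6.39 (day 7), it reached its highest level of the 12. The mean difference was -0.96 (SE 0.22, unadjusted p = 0.0046). Syvn1, the Hrd1 ubiquitin ligase, was at 6.14, 5.98, 7.42 and 7.18 without DEN, 5.80, 5.88, 6.23 and 6.37 with it and 5.82 against 6.19 (day 2) and 5.22 against 5.56 (day 7) in the siRNA arrays, a mean difference of -0.61 (SE 0.19, unadjusted p = 0.0179). Sel1l, the adaptor of Hrd1, was lower in 3 of 4 pairs, the differences being -0.20, 0.09, -1.11 and -0.86 in the pairs without and with ATRA at day 2 and without and with ATRA at day 7. Edem1, which passes glycoproteins on to degradation, was at 3.31, 3.37, 3.85 and 3.46 without DEN, 3.22, 2.94, 3.58 and 3.71 with it and 3.49 against 3.66 (day 2) and 3.62 against 3.64 (day 7) in the siRNA arrays, with a mean difference of -0.14 (SE 0.13).

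The UPR regulators had no common direction. Atf6, the sensor that becomes a transcription factor, was at -0.78, -0.55, 0.60 and 0.17 without DEN, -0.997, -0.73, -0.44 and -0.65 with it and -0.46 against -0.59 (day 2) and 0.51 against 0.18 (day 7) in the siRNA arrays, a mean difference of -0.57 (SE 0.17, unadjusted p = 0.0176). The other 6 regulators had no unadjusted p under 0.05. Total Xbp1 mRNA, whose splicing by IRE1 this probe does not report, differed by -0.10 (SE 0.09) and was lower in all 4 pairs. Atf4 differed by -0.14 (SE 0.11) and Ddit3, which encodes the pro-apoptotic factor CHOP, by 0.07 (SE 0.14). Trib3, a pseudokinase target of ATF4 and CHOP, was the only member higher in all 4 pairs, by 0.08, 0.34, 0.40 and 0.18, with a mean of 0.25 (SE 0.14, unadjusted p = 0.122). The sensor Eif2ak3 was higher with DEN in 3 pairs by at most 0.21 and lower by 1.04 in the day-7 pair without ATRA, at 1.30 in vehicle and 0.26 in DEN.

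In the heat shock class all 8 mean DEN differences were negative, but only 2 of the 8 genes were lower in all 4 pairs. Hspb1, a small heat shock protein, was at 4.88, 5.39, 6.70 and 7.13 without DEN, 4.37, 4.08, 6.05 and 6.65 with it and 4.73 against 4.95 (day 2) and 5.89 against 4.85 (day 7) in the siRNA arrays, a mean difference of -0.74 (SE 0.24, unadjusted p = 0.0219). Hsp90aa1, the inducible cytosolic Hsp90, was at 6.57, 6.41, 6.68 and 6.73 without DEN, 6.26, 5.45, 6.19 and 6.41 with it and 7.00 against 6.79 (day 2) and 5.45 against 5.46 (day 7) in the siRNA arrays, a mean difference of -0.52 (SE 0.14, unadjusted p = 0.00898). The other 6 had no common sign. Dnajb1, the cytosolic Hsp40, differed by 1.02, -0.89, -0.64 and 0.30 in the pairs without and with ATRA at day 2 and without and with ATRA at day 7. Hsph1, an exchange factor of cytosolic Hsp70, differed by 0.31, -0.80, -1.03 and -0.10, and Bag3, a co-chaperone of Hsp70, by 0.01, -0.78, -0.998 and 0.06. The constitutive Hspa8 differed by 0.39, -0.57, -0.39 and -0.08, Hspb8, the partner of Bag3, by 0.18, -0.30, -0.34 and 0.27, and Hspa1a by 0.03, 0.43, -0.96 and -0.15. The mitochondrial Hspd1 differed by 0.10, -0.19, -0.05 and 0.19 and its partner Hspe1 by 1.01, -0.30, -0.10 and 0.77, so neither had a common sign.

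By pair, the differences of ER chaperones were largest in the day-7 pair without ATRA. Their medians were -0.35 and -0.54 at day 2 without and with ATRA, and -0.94 and -0.64 at day 7. At least 2-fold lower were 0 of 14 in the day-2 pair without ATRA (3.68% of all genes), 1 of 14 with ATRA at day 2 (2.72%), 7 of 14 without ATRA at day 7 (6.06%) and 2 of 14 with ATRA at day 7 (3.79%). The heat shock medians were 0.10 and -0.79 at day 2 without and with ATRA and -0.64 and -0.09 at day 7. The pair at day 2 without ATRA contains the vehicle array with exocrine pancreas transcripts. Without that pair the ER chaperone median was -0.65, with 12 of 14 lower in all 3 remaining pairs. A gene lower in all 4 pairs is also lower in these 3, so this count cannot be smaller than that over 4. The share of all genes lower in these 3 pairs was not counted. Each pair is a difference between single arrays, so these orders have no test.

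**Figure D3:**
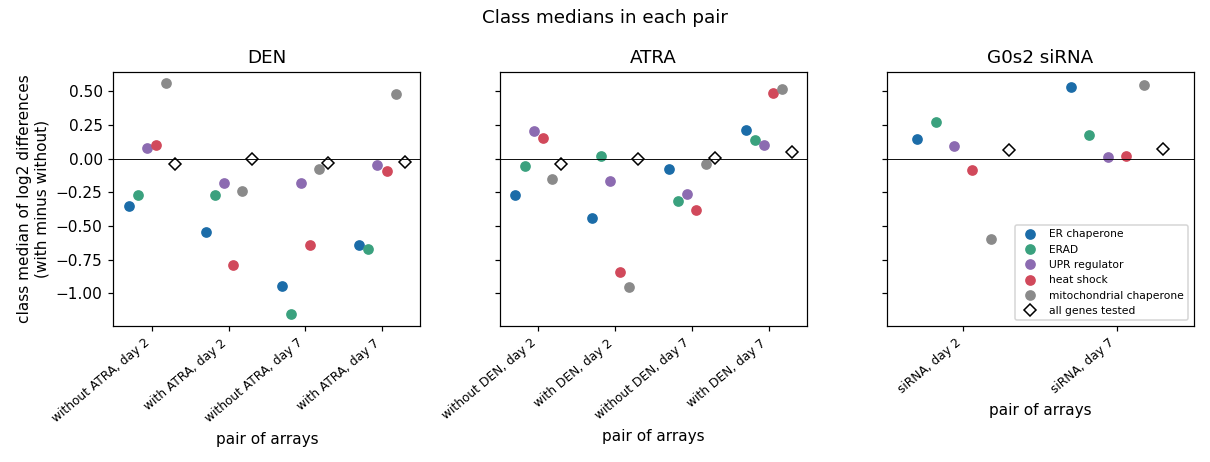
Median log2 difference of each class, with minus without the agent, in each pair of arrays for DEN, ATRA and G0s2 siRNA; diamonds give the median of all 21206 genes. ER chaperone medians lie below 0 in all 4 DEN pairs, below 0 in 3 of 4 ATRA pairs and above 0 in both siRNA pairs.

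Other genes of the same pathways, from lists that hold no member, gave these counts for DEN. The lists too were chosen with earlier results of these data known. Of 34 other ER folding and quality control genes, 29 were lower, 22 of them in all 4 pairs, with a median of -0.26 and 14 at an unadjusted p under 0.05, among them Uggt1, the folding sensor of the calnexin cycle (-0.58, SE 0.12), the disulfide isomerase Txndc5 (-0.53, SE 0.12) and the ER oxidase Ero1lb (-0.85, SE 0.21). Of 19 other ATF4 and PERK targets, 11 were lower and 8 higher, with a median of -0.01. Nupr1 was lower in all 4 pairs (-0.69, SE 0.15) and Sesn2, which p53 also induces, was higher in all 4 (0.87, SE 0.25). Of 31 other HSF1 targets and cytosolic chaperones, 25 were lower, 4 of them in all 4 pairs, with a median of -0.13. The co-chaperone Stip1 differed by -0.39 (SE 0.14). Of all 21206 genes, 54.2% were lower, 12.5% were lower in all 4 pairs and 6.8% were lower at an unadjusted limma p under 0.05. The 4 of 31 HSF1 targets and cytosolic chaperones lower in all 4 pairs lie near that 12.5%. None of the genes on these lists passed the adjusted threshold.

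Beyond the members, 29 genes carry an exact ERSE in their promoter window, and 11 of them were tested. Their median DEN difference was -0.06, with 6 lower and 5 higher, while the 8 members with an ERSE had a median of -0.60, with 7 lower, 5 of them in all 4 pairs, against 12.5% of all genes lower in all 4. Among ER chaperones, the 7 with an ERSE had a median of -0.58 with 4 lower in all 4 pairs, and the other 7, of which 2 had no window, had a median of -0.57 with 6 lower in all 4. The largest differences among the 11 were those of Xlr3b (2.67), Acnat2 (1.20) and Derl3, an ERAD gene (-1.10). The members were not a random draw from genes with the motif, so these counts describe the windows only.

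Other lists also differed with DEN. Of all genes, 12.5% were lower and 9.17% were higher in all 4 pairs. All 14 p53 targets were higher, with a median of 2.18, and 12 of 14 tested clock and output genes were lower, 4 in all 4 pairs, with a median of -0.33, among them Usp2 (-1.22, SE 0.26). The hour of sampling is not given in the sources used here. All 8 hepatocyte markers were lower on average, with a median of -0.18, and 4 were lower in all 4 pairs. Of 4 tested red cell genes, 3 were lower in all 4 pairs and 1 was higher, with a summed level of 4.81 to 7.33 without DEN and 4.62 to 6.69 with it. In whole liver RNA, fewer cells of a type and less RNA per cell cannot be told apart. The part of these lists in the chaperone differences was not tested.

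The ATRA pairs ask what the retinoid does with and without DEN, and they share the same 8 arrays with the DEN pairs. No gene of the 21206 passed limma's adjusted threshold (0%), and at an unadjusted p under 0.05 there were 0 members, against 5.81% of all genes. The only member with the same sign in all 4 pairs was Pdia4, with a mean difference of -0.22 (SE 0.11, unadjusted p = 0.0969), against 7.11% of genes lower and 6.83% higher in all pairs. ER chaperones were lower with ATRA at day 2, 13 of 14 without DEN and 14 of 14 with it, with medians of -0.27 and -0.44, while 11641 and 10593 of all 21206 genes were lower in those pairs. The pair without DEN uses the day-2 vehicle array with pancreas transcripts, and all 6 tested pancreas markers were lower with ATRA on average (median -0.71), whose part in this was not tested. Over the 4 pairs the ER chaperone median was -0.12, and without that pair it was -0.09. At day 7 the medians were -0.08 without DEN and 0.21 with it. Within slide 1, which holds the day-2 pairs, the ER chaperone median was -0.33. The day-7 pairs span 2 slides.

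Trib3 showed the largest ATRA differences of the UPR regulators at day 2, and their sign was opposite at day 7, when Eif2ak3 (-0.64 without DEN) and Ern1 (-0.76 with DEN) differed more. At day 2 its level was 0.21 in vehicle, 1.48 in ATRA, 0.28 in DEN, 1.81 in the combined treatment, 0.55 in control siRNA and 0.82 in G0s2 siRNA. At day 7, in the same order, it was 1.14, 0.88, 1.55, 1.05, 2.14 and 1.73. With ATRA it was higher at day 2 by 1.27 without DEN and 1.53 with DEN, and lower at day 7 by 0.26 and 0.49, a difference between days that was not tested. Among heat shock genes at day 2, ATRA with DEN gave a median of -0.84 with 7 of 8 lower (10593 of all 21206 genes), and ATRA without DEN one of 0.15 with 6 of 8 higher (9565 of 21206). Hsph1 was at 4.05 in DEN and 3.00 in ATRA+DEN at day 2, and at 3.74 and 3.79 in vehicle and ATRA. Hspa1a ran the other way from the rest of its class, at -2.42 in DEN and -1.36 in ATRA+DEN.

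The DEN difference was also compared between arrays with and without ATRA. No gene passed limma's adjusted threshold for this interaction (0%), and 0 members had an unadjusted p under 0.05, against 3.61% of all genes. Of the members, Dnajb9 had the largest interaction, with a DEN difference of -0.74 without ATRA and -0.02 with it (interaction 0.72, SE 0.60). Hspa1a went from -0.47 without ATRA to 0.14 with it (0.61, SE 0.46), with levels in the array order given for Trib3 of -2.44, -1.79, -2.42, -1.36, -1.32 and -0.55 among day-2 arrays and -0.88, -1.86, -1.84, -2.01, -0.79 and -1.01 among day-7 arrays. Ern1 went from 0.46 to -0.14 (-0.61, SE 0.30) and Creld2 from -1.65 to -1.16 (0.49, SE 0.65). None passed the test, which does not show that the DEN difference was alike with and without ATRA.

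The siRNA arrays ask what less G0s2, an inhibitor of triglyceride lipase, does in the liver. ER chaperones were higher with G0s2 siRNA than with control siRNA: 13 of 14 had a positive mean difference and 10 were higher in both pairs, with a median of 0.34 and, over all genes, 0.06. Of all 21206 genes, 12685 had a positive mean difference. All 4 ERAD genes were higher in both pairs, with a median of 0.23. No gene of the 21206 passed limma's adjusted threshold (0%), 1 member, Pdia3, had an unadjusted p under 0.05, and the share over all genes was 6.78%. Of 35 members 17 were higher in both pairs and 1, Atf6, was lower, against 36.4% and 20.7% of all genes. Only 2 pairs enter this comparison. Its SE and p-values come from a fit that pools the spread of these pairs with that of the 4 DEN pairs.

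The ER chaperone median was 0.14 at day 2 and 0.53 at day 7, a difference between days that was not tested. Hspa5 differed by 0.16 and 0.72 at day 2 and day 7 (mean 0.44, SE 0.22, limma unadjusted p = 0.0959). Dnajb9 differed by 0.29 and 0.79 (SE 0.41 from the pooled fit) and Manf by 0.07 and 0.70 (SE 0.32). Pdia3 differed by 0.17 and 0.54 (SE 0.14, limma unadjusted p = 0.0497). Hspa5 and Manf had their lowest level of the 12 arrays in control siRNA at day 7. Eif2ak3, which encodes PERK, differed by 0.43 and 0.66 (mean 0.55, SE 0.32), with levels in the array order given for Trib3 of 0.42, 0.30, 0.64, 0.40, 0.40 and 0.83 among day-2 arrays and 1.30, 0.67, 0.26, 0.71, -0.00053 and 0.66 among day-7 arrays. The heat shock median was -0.07, with -0.08 at day 2 and 0.02 at day 7, and Hspb1 was higher by 0.21 at day 2 and lower by 1.03 at day 7. Of 34 other ER folding and quality control genes 28 were higher, 20 in both pairs. Over all genes, 12685 of 21206 were higher on average, and 36.4% were higher and 20.7% lower in both pairs. All 7 measured markers of Kupffer cells and macrophages were lower with G0s2 siRNA in both pairs, with a median of -0.53 and a summed level of 7.91 in control and 7.31 in G0s2 siRNA at day 2 and 6.37 and 5.57 at day 7, against 5.73 to 6.21 on the 8 arrays without siRNA, all 7 being above background throughout. Their part in the chaperone differences was not tested.

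The comparison of day 7 with day 2 lies between slides, so day and slide cannot be told apart. At adjusted p under 0.05 (limma), 6 of 35 members were higher at day 7, against 26.3% of all genes, and 1 was lower, against 20.5%. The higher members were Hspb8 (1.09, SE 0.13, adjusted p = 0.00127), Hspb1 (1.48, SE 0.31), Sdf2l1 (1.06, SE 0.34), Atf6 (0.74, SE 0.17), Pdia6 (0.70, SE 0.14) and Canx (0.41, SE 0.11), over 6 pairs. The lower member was Ern1 (-1.37, SE 0.31, adjusted p = 0.0105). With slide as a random block, Hspb8 and Ern1 were the 2 members left. The Sdf2l1 call (adjusted p = 0.0373) was lost without any 1 of the vehicle, ATRA, DEN or ATRA+DEN pairs, at adjusted p of 0.0591 to 0.0978. That of Canx was lost without the ATRA, ATRA+DEN or G0s2 siRNA pair, at 0.0542 to 0.0590. The median of all genes was 0.11 here and -0.14 with the percentile taken over probes detected on all arrays, a shift against which the smaller day differences are read. Under that scaling and under quantile normalization 3 members were higher and 2 lower, and the share of day calls over all genes that were higher was 28.5% and 48.8%, against 56.1% here.

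All 5 tested T and NK cell markers were lower at day 7, with a summed level of 4.01 to 4.60 at day 2 and 2.90 to 3.52 at day 7, and their part in these differences was not tested.

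Of the 35 members, 4 were higher at day 7 in all 6 pairs and 1 was lower. Of all 21206 genes, 5303 were higher and 3888 lower in every pair. The share of all genes with no overlap between the days was not counted. Ern1 fell at day 7 in all 6 pairs. In the order given for Trib3 its levels were 2.44, 2.73, 2.60, 2.49, 2.46 and 2.64 among day-2 arrays and 1.52, 1.58, 2.28, 1.53, 0.31 and -0.04 among day-7 arrays. The day-7 siRNA arrays were lowest, and no level of day 7 reached the lowest level of day 2. Another Ern1 probe, above background on 10 arrays, gave a day difference of -1.09, and the mean over 4 Ern1 probes gave -0.58 (limma adjusted p = 0.0728). Hspb8 rose in all 6 pairs, from 3.86, 4.09, 4.03, 3.79, 4.14 and 4.00 to 5.02, 5.11, 4.68, 5.37, 5.09 and 5.16 in the same order, with no overlap between the days. Dnajb11, Calr and Edem1, with unadjusted p under 0.05, were higher by a mean of 0.45 (SE 0.19), 0.53 (SE 0.21) and 0.31 (SE 0.13) and did not pass the adjusted threshold.

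**Figure D4:**
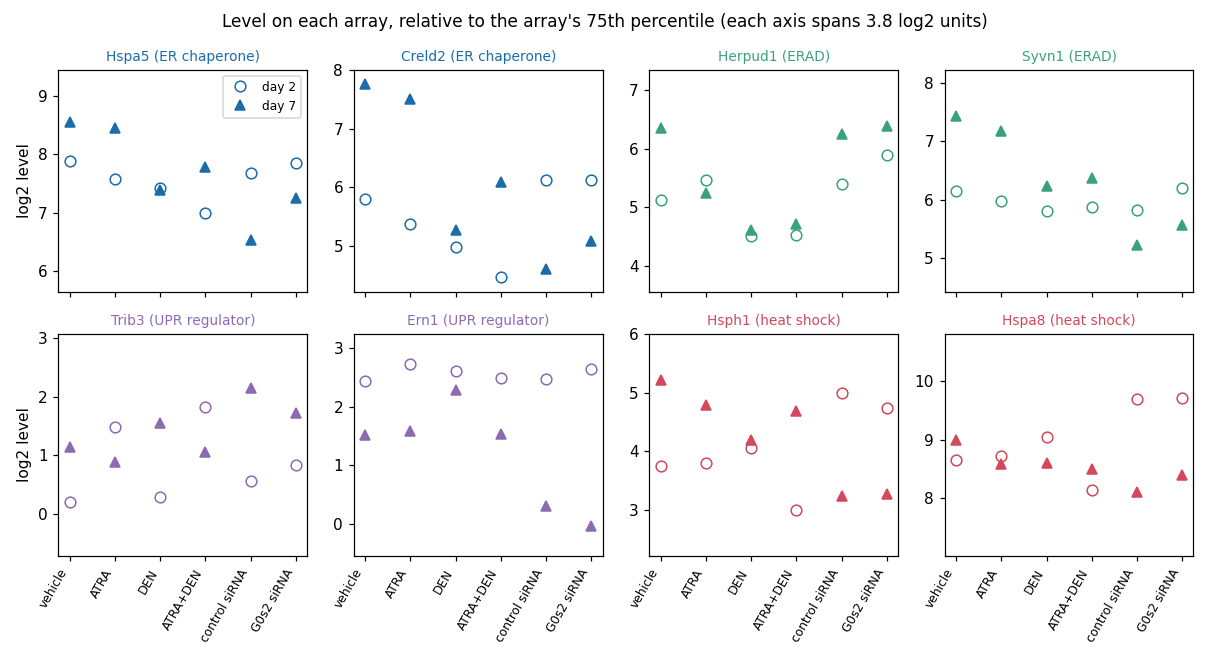
Log2 level, relative to the 75th percentile of the array, of 8 genes on each of 12 arrays, by treatment (open circles day 2, filled triangles day 7; 1 array per point). Hspa5, Creld2 and Syvn1 are highest in vehicle and ATRA at day 7, and Hspa8 is highest in the day-2 siRNA arrays.

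The day differences of the medians of 4 classes had opposite signs in groups with and without siRNA; those of the mitochondrial chaperones did not, at -0.51 in DEN and 0.18 in G0s2 siRNA. The ER chaperone median was positive in the 4 groups without siRNA (0.15 to 0.88) and below 0 in both siRNA groups (-0.35 and -0.0070), and the heat shock medians were 0.08 to 1.36 and -0.75 and -0.66. In G0s2 siRNA 8 of 14 ER chaperones were lower and 6 higher at day 7, so the sign of that median is not settled. Hsph1, in the array order given for Trib3, was at 3.74, 3.79, 4.05, 3.00, 5.00 and 4.73 among day-2 arrays and 5.21, 4.79, 4.18, 4.69, 3.23 and 3.27 among day-7 arrays. Hspa8, the constitutive cytosolic Hsc70, was at 8.65, 8.72, 9.04, 8.15, 9.69 and 9.72 and 8.99, 8.58, 8.61, 8.50, 8.10 and 8.40. The day-2 siRNA arrays were thus the highest for Hspa8 and the day-7 control siRNA array the lowest. The difference between siRNA and other groups was tested with a day-by-siRNA term, a comparison added after these values were seen. No member passed limma's adjusted threshold, against 0.316% of all genes with a lower and 0.0519% with a higher day difference under siRNA. At an unadjusted p under 0.05, 20 of 35 members had a lower day difference with siRNA and 0 a higher one, against 10.5% of all genes lower. The smallest adjusted p were those of Hsph1 (day difference 1.07 without and -1.61 with siRNA, adjusted p = 0.0675) and Hsp90aa1 (0.33 and -1.44, adjusted p = 0.0794). Creld2 had the largest difference, 1.50 without and -1.28 with siRNA (adjusted p = 0.0897). The single-pair differences of the members were most negative for Ern1 between days in G0s2 siRNA (-2.68) and control siRNA (-2.16) and for Creld2 with DEN at day 7 (-2.49). They were most positive between days for Hspb1 in ATRA+DEN (2.56) and for Sdf2l1 (2.22) and Creld2 (2.15) in ATRA. In 11 of 35 members the day difference was positive in all 4 groups without siRNA and negative in both siRNA groups, against 3.77% of all genes. The siRNA arrays of day 2 lie on a slide of their own, so slide and siRNA cannot be told apart there, and at day 7 they share slide 4 with the arrays titled ATRA and ATRA+DEN. Whether the siRNA mice drank DEN is not stated, and the groups without siRNA include vehicle and ATRA. The summed level of 14 p53 targets at day 7 was 7.79 in control siRNA and 8.59 in G0s2 siRNA. It was 8.70 in DEN, 8.41 in ATRA+DEN, 5.59 in vehicle and 5.69 in ATRA. The part of DEN in the siRNA comparison of days was not tested.

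**Figure D5:**
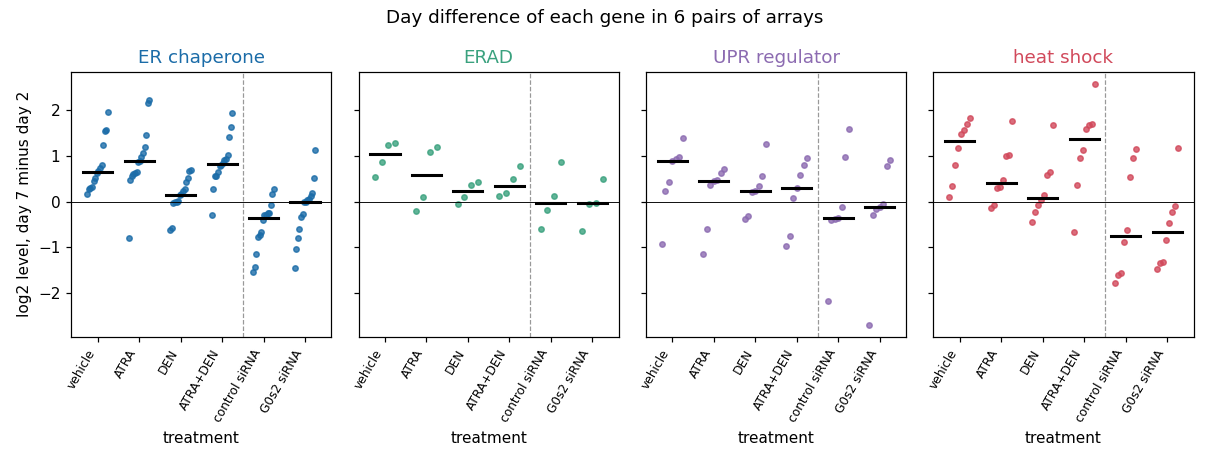
Difference in log2 level, day 7 minus day 2, of each gene of 4 classes in 6 pairs of arrays of the same treatment (points genes, bars class medians; the dashed line parts groups without and with siRNA). The medians of ER chaperones and heat shock genes are above 0 in the 4 groups without siRNA and below 0 in both siRNA groups.

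Likeness of pattern was described by the Pearson correlation over the 12 arrays after the mean of each day was subtracted, among 15762 genes detected on all arrays; the arrays share slides, so this is a description with no test. The 10 genes most like Hspa5 held 5 ER chaperones, Dnajb11 (r = 0.99), Manf (0.99), Hsp90b1 (0.97), Creld2 (0.96) and Sdf2l1 (0.96). Besides an unnamed probe, the rest were Slc35b1, an ER nucleotide transporter (0.98), Ubfd1 (0.97), Olfr1368 (0.97) and Thada (0.95). Pdia6 (-0.20), Herpud1 (0.04) and Atf6 (0.07) were not alike with Hspa5, and Trib3 was opposite (-0.71). The median r with Hspa5 was 0.90 for the other ER chaperones and 0.63 for the heat shock genes, and with Hspa8 it was 0.52 for the ER chaperones and 0.78 for the other heat shock genes. The genes most like Hspa8 were Derl2, an ERAD gene (0.94), Fkbp8 (0.91), Fitm2 (0.91), Phf5a (0.90), Znfx1 (0.90), Mtf1 (0.89), Rgs4 (0.88) and Zfand2a (0.88), besides 2 probes without a gene symbol.

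Some genes have several probes, and the brightest was used. For Dnajb9 the second probe gave a day difference of -1.33 against 0.43, and the other Hspa8 probes gave 0.03 and -0.02 against -0.46. Their DEN differences had the same sign as that of the brightest probe, -0.52 against -0.38 for Dnajb9 and -0.29 and -0.21 against -0.16 for Hspa8.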

How the data were processed

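Liver RNA from 12 groups was labelled with Cy3 and hybridised to Agilent arrays, 1 array per group. The deposited files hold processed spot intensity values of Agilent Feature Extraction (version 10.7.1.1 per the file headers, 9.5.1.1 per the submitters' processing notes). Background subtraction and detrending are part of those values, per the file headers. The deposited series table of normalized intensities was used only as an alternative. Flagged spots (92 to 145 per array) were left out, spots of a probe averaged, log2 taken, and the 75th percentile of each array subtracted. The brightest of a gene's probes was used if well above background on at least 2 of 12 arrays. The number of arrays limits the precision. limma 3.58.1 (R 4.3.3) was fitted over all genes with Benjamini-Hochberg adjustment at 0.05: DEN over 4 pairs and G0s2 siRNA over 2 in a fit with the pair as a block, ATRA over 4 pairs, DEN by ATRA with slide as a block, and day over 6 pairs with treatment as a block. The fits, except that of day by siRNA, were run on simulated data with independent noise on each array. The simulation held no slide effects, so it does not show how the fits behave where arrays share slides. Members, lists, named-gene rule and tests were chosen with earlier results of these data known. Given in every array were members with an unadjusted p under 0.05, or, where fewer than 4, those with the largest mean difference of the same sign in every pair, up to 4. For lists, up to 4 genes with the smallest p could be named. Alternatives were other scaling, background correction, probes and filters, the series table, day-7 groups by the characteristic, slide terms, and each pair left out.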

Additional observations from a re-analysis of the deposited data

Results flagged for a closer look

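The day difference of the medians of 4 classes pointed up in every group without siRNA and down in both siRNA groups, but not that of the 2 mitochondrial chaperones, which was -0.51 in DEN and 0.18 in G0s2 siRNA. For ER chaperones it was 0.64 in vehicle, 0.88 in ATRA, 0.15 in DEN and 0.82 in ATRA+DEN, but -0.35 in control siRNA and -0.0070 in G0s2 siRNA. For ERAD genes it was 1.04, 0.59, 0.22 and 0.34 without siRNA, in that order, and -0.026 and -0.041 with it. For UPR regulators it was 0.88, 0.45, 0.22 and 0.31 without siRNA and -0.35 and -0.12 with it. For heat shock genes it was 1.32, 0.40, 0.085 and 1.36 without siRNA and -0.75 and -0.66 with it. The difference of these medians was not tested. The test gene by gene called no member at adjusted p under 0.05 (limma). Some of these medians lie near 0. In G0s2 siRNA 8 of 14 ER chaperones were lower and 6 higher, and in control siRNA 2 ERAD genes were lower and 2 higher. With the percentile over detected probes the day median of all genes was -0.14, against 0.11 here. The signs of small medians may thus depend on the scaling, which was not tested by pair. Whether the siRNA mice drank DEN is not stated.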

How the results depend on the processing

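No named member changed direction under any alternative run, but some class medians given below changed sign. The 15 members named for DEN kept their direction in all 13 alternatives, and none passed the adjusted threshold in any. With the day-7 groups taken from the treatment characteristic, however, the number of ER chaperones lower with DEN in every pair was 0, that with an unadjusted p under 0.05 was 0, and their median was -0.17; the relabelling itself changes which arrays are paired. For G0s2 siRNA the heat shock median was -0.17 under quantile normalization, -0.16 under normexp and -0.16 in the series table, and from -0.083 to 0.022 with a pair left out, against -0.07; the UPR regulator median was -0.14 with the percentile over detected probes and 0.011 to 0.095 with a pair left out, against -0.07; the cause was not tested. The day comparison called 2 members with slide as a random block. Day differences with siRNA against without called 7 members under normexp and 5 among genes above background on all 12 arrays. Of the calls of single members in the day comparison, 21 were lost and 6 gained across alternatives, Sdf2l1 and Canx losing theirs most often. For ATRA, the UPR regulator median (-0.07) was 0.0050 without the day-2 pair with DEN and 0.0024 without the day-7 pair without DEN, and the heat shock median (-0.08) was 0.04 without the former. The heat shock median of the day comparison was -0.04 with the percentile over detected probes and -0.05 without the vehicle pair, against 0.21. Over all genes, normexp called 13 for DEN and 4 for G0s2 siRNA where the fit described called 0, leaving out the day-2 siRNA pair called 1, and slide as a random block called 4724 for day against 5567 higher and 4357 lower. For the day-by-siRNA term 67 genes were called lower and 11 higher; alternatives called 441 under normexp, 384 among genes above background on all arrays, 0 with no filter and 0 to 2 with a pair left out. No paired analysis was possible by replicate number because each group is 1 array with no number in the labels; pairs here are arrays of the same day or treatment. Signal over background limits Hyou1, Atf6, Ddit3, Trib3, Eif2ak3 and Hspa1a most, the members with the lowest levels.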
